A study of Mus musculus with 16 samples.

Results

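Chromosome 8 was described through the 818 of its 1081 genes in the deposited count tables that held at least 50 counts summed over all 16 sequencing runs, out of 22375 genes in all. The chromosome was chosen by measured values, since earlier results of these data had shown chromosome 8 to be lower in Cfp1-/- than in wild-type (WT) ES cells. The difference between the lines is therefore given below as a description, with no test of the chromosome. Calls of single genes on that difference, also within the lists, are counted as a description and are no support for it. The doxorubicin response was not used in the selection and was tested gene by gene. Of the chromosome's other genes, 263 had fewer than 50 counts, 85 of them none. The genes nearest the limit were Il12rb1, Best2 and Cdh5 with 50 counts each, just inside, and Gm5607 and F7 with 49 and 1700018B08Rik with 48, just outside.

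RNA came from mouse embryonic stem (ES) cells of strain 129/OLA grown without feeder cells on gelatin, in serum and LIF. The 4 groups were untreated WT cells of the line E14TG2a, untreated Cfp1-/- cells that lack CxxC finger protein 1, and each line after doxorubicin at 1 μM for 6 hours; the dose is that of the protocol and methods. Each group had 2 biological replicates, sequenced in 2 runs each, so n = 2 per group throughout. Each genotype was 1 line, so the effect of the deletion cannot be told apart from any other difference between the lines.

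Cfp1 binds unmethylated CpG and is a subunit of the Set1 complex, which trimethylates lysine 4 of histone H3 at active promoters. Doxorubicin traps topoisomerase II on DNA and breaks it, which activates the transcription factor p53. Mouse chromosome 8 carries subunits of the replicative helicase, immediate-early factors and the type IV collagen pair Col4a1 and Col4a2, and it is among the chromosomes that mouse ES cell lines are known to gain in culture. Read counts do not separate the number of gene copies from the RNA made per copy. In bulk RNA, fewer cells of a type and less RNA per cell cannot be told apart either.

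The 8 libraries held 14880589 to 29422711 counts. Cxxc1, the gene of Cfp1 on chromosome 18, had 616 to 1412 counts in the WT libraries and 1 to 5 in the Cfp1-/- libraries, as the labels require. The 2 runs of replicate 1 of treated Cfp1-/- and of treated WT cells differed by more than counting error, since chi-square divided by its degrees of freedom was 10.6 and 7.28 over chromosome 8 genes and 0.872 to 1.13 in the other 6 pairs. Over all genes it was 42.9 and 9.61, and 0.998 to 1.05 in the other 6 pairs. The 7 ES cell markers measured summed to 46273 to 68993 normalized counts in untreated WT and 56611 to 60095 in untreated Cfp1-/- cells, and to 21910 to 30891 and 19647 to 26781 after doxorubicin. The 6 fibroblast markers summed to 219.957 to 242.083 and 74.2 to 83.7 untreated and to 359 to 513 and 300.251 to 359.575 treated. The 2 neural markers found summed to 2787 to 3774 and 813 to 1176 untreated and to 1155 to 3345 and 498 to 552 treated. No marker was at 0 in every library. The part of these markers in the results was not tested.

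The promoters of the extreme genes of the chromosome are shown for their CG positions, and neither methylation nor Cfp1 binding was measured there. RefSeq promoter windows of 300 bases around the start (GRCm38.p6) were found by symbol for 483 of 818 members, too few to compare CpG content over the members. They are shown for the first genes with an entry at either end of the Cfp1-/- to WT range in untreated cells, with CG in capitals.

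Trim67: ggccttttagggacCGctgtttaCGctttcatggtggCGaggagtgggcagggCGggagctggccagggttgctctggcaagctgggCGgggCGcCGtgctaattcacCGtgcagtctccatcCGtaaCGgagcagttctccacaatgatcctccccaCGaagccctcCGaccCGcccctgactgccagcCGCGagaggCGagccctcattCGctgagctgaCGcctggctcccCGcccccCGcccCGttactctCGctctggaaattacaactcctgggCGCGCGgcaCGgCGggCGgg
Tbc1d9: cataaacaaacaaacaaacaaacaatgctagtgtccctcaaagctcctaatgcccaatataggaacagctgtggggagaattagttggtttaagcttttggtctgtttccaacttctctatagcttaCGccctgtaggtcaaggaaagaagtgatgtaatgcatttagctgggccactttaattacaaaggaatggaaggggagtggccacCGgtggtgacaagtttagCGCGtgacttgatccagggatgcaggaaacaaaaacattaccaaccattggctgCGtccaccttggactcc
Col4a1: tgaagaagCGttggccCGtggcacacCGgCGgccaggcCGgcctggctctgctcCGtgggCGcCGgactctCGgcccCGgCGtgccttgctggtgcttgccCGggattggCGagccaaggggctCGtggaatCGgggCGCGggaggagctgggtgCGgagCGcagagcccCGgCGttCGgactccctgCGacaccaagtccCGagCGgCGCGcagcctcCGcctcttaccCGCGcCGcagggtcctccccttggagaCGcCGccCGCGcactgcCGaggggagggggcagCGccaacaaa
Col4a2: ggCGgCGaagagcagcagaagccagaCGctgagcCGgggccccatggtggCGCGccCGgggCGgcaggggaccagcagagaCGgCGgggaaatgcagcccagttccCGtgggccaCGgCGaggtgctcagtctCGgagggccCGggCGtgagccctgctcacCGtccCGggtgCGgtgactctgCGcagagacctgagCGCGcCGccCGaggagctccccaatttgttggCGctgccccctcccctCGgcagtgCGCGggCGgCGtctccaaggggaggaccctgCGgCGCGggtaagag

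The window of Trim67 (chr8:124792769-124793068, plus strand) held 28 CG and that of Tbc1d9 (chr8:83165102-83165401, plus strand) held 5. Those of Col4a1 (chr8:11312777-11313076, minus strand) and Col4a2 (chr8:11312555-11312854, plus strand) held 37 and 33, and they share 78 bases, because the genes start head to head. A CG on either strand is present in 94.6% of the 32851 promoter windows of the table.

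To place chromosome 8 against the rest of the genome, log2 CPM (counts scaled to the size of the library) of each gene were subtracted between the lines, and the median over members was compared with the median over 11106 genes of 15 comparison autosomes, all but 7, 8, 11 and 19. In untreated cells the members had a median difference, Cfp1-/- minus WT, of -0.23 and the comparison genes one of -0.09, which set chromosome 8 lower by 0.14 on the log2 scale (-0.133 within replicates 1, -0.144 within replicates 2). After doxorubicin the medians were -0.24 and -0.04, a gap of -0.20 (-0.144 and -0.177 within the replicates). No comparison autosome had a median as low. They ranged from -0.09 to 0.13 in untreated cells and from -0.06 to 0.15 after doxorubicin. Chromosomes 7 and 11, which were left out of the comparison, stood at 0.59 and 0.56 without the drug and at 0.51 and 0.53 with it, and chromosome 19 stood at 0.37 and 0.02. Within the replicates chromosome 19 gave 0.353 and 0.378 without the drug, but -0.236 and 0.295 with it, which differ in sign.

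**Figure D1:**
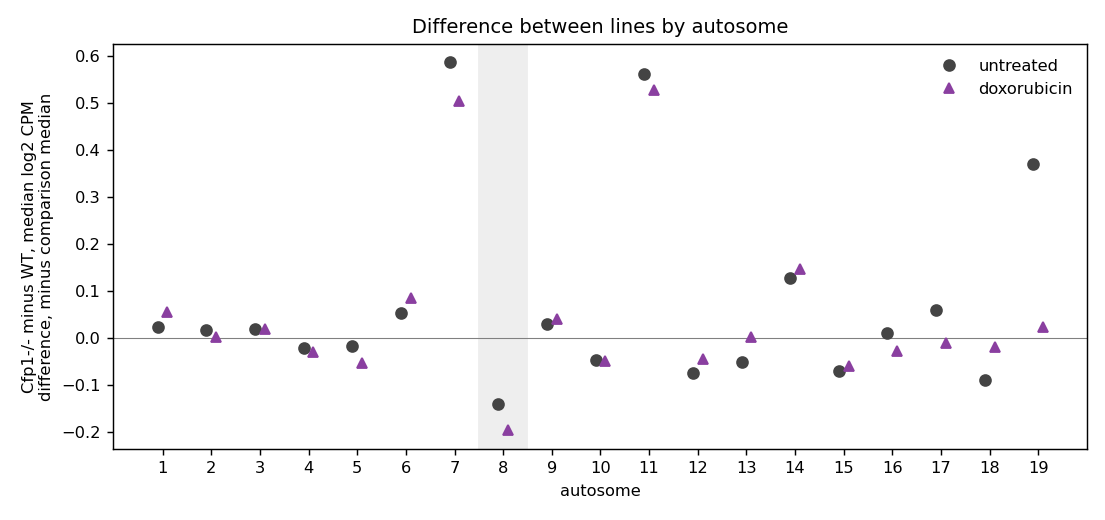
Median log2 CPM difference, Cfp1-/- minus WT, of the genes of each autosome with at least 50 summed counts, minus the median over the 15 comparison autosomes (vertical axis, log2), for untreated (circles) and doxorubicin-treated (triangles) cells. Chromosome 8, on the grey band, was at -0.14 and -0.20, while chromosomes 7 and 11 were above 0.5.

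The shift was small beside the spread between genes. The middle 50% of members lay between -0.61 and 0.28 in untreated cells, against -0.49 and 0.39 for the comparison genes, and 57.6% of members were below the comparison median, or 62.1% after doxorubicin. The label that chromosome 8 genes are lower in the null line thus holds for the median and not for every gene. All 4 Cfp1-/- libraries had lower member medians than all 4 WT libraries. After centring each gene on its mean over the libraries, the member median minus the comparison median was 0.013 and 0.029 in untreated WT, 0.114 and 0.130 in treated WT, -0.102 and -0.091 in untreated Cfp1-/-, and -0.061 and -0.044 in treated Cfp1-/- cells.

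The summed counts told less. Of the counts on chromosome 8 and the comparison autosomes, chromosome 8 took 5.36% to 5.50% in the 4 runs of untreated WT and 5.37% to 5.39% in those of untreated Cfp1-/- cells, which overlap. After doxorubicin it took 6.16% to 6.33% in WT and 5.82% to 5.91% in Cfp1-/- cells, which do not. On the log2 scale the share gave a gap of -0.01 untreated and -0.10 treated. By quartile of expression, from the lowest to the highest, the gap of medians was -0.14, -0.27, -0.13 and -0.08 untreated and -0.11, -0.29, -0.15 and -0.16 treated, and so did not follow expression in order.

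**Figure D2:**
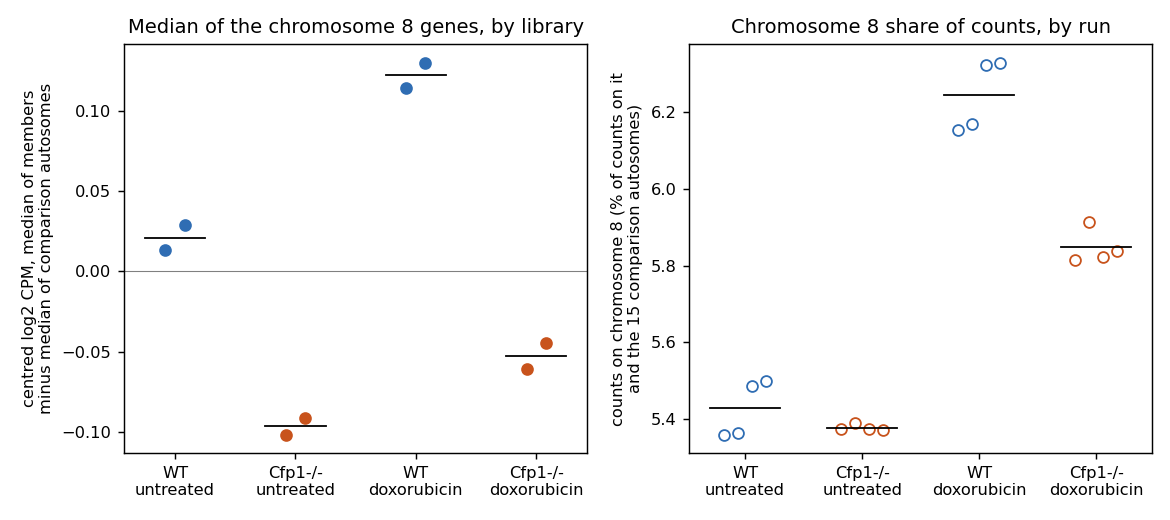
Left, median over the 818 chromosome 8 genes of the centred log2 CPM, minus that over the comparison genes, with 1 point per library. Right, counts on chromosome 8 as a percent of the counts on it and the 15 comparison autosomes, with 1 point per run; horizontal lines are group means. The Cfp1-/- libraries are all lower on the left, while the untreated runs of the lines overlap on the right.

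Of the 814 members with enough counts for the fit, 202 passed an adjusted p of 0.05 (edgeR's quasi-likelihood test, Benjamini-Hochberg over all genes) as lower in untreated Cfp1-/- cells and 93 as higher, or 24.8% and 11.4%. Among all 15758 genes tested 16.1% were lower and 17.9% higher, and on the comparison autosomes 19.2% and 13.2%. After doxorubicin 152 members (18.7%) were lower and 71 (8.72%) higher, beside 10.8% and 15.1% of all genes and 12.2% and 11% on the comparison autosomes. The calls in both conditions, which share no library, included 115 members lower (background 7.85%) and 48 higher (background 10.6%). Because this contrast chose the chromosome, nothing was read from these counts. The number lower fell from 202 to 109 or 131 without replicate 1 or 2 of untreated Cfp1-/- and to 122 without replicate 2 of untreated WT. In treated cells it fell from 152 to 77 or 53 without replicate 1 or 2 of Cfp1-/- and to 89 without replicate 2 of WT, and was 237 with a replicate block. The number higher in treated cells fell from 71 to 38 or 36 without replicate 1 or 2 of Cfp1-/- and to 43 without either replicate of WT.

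Counted by whether the libraries of the lines overlap, 402 members had both Cfp1-/- libraries below both WT libraries in untreated cells and 404 after doxorubicin, 49.1% and 49.4% of the 818, against backgrounds of 34.5% and 30.5% over all genes and of 39.1% and 33.9% on the comparison autosomes. In both conditions this held for 324 members (39.6%, background 22.6%, comparison autosomes 25.6%). The reverse order was seen for 199 members untreated (24.3%, background 35.8%, comparison autosomes 29.5%), 177 treated (21.6%, background 33.8%, comparison autosomes 28.9%) and 121 in both (14.8%, background 24.7%, comparison autosomes 19.4%).

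The difference was not uniform along the chromosome. In 10 Mb windows of gene start (NCBIm37), the medians of the first 20 Mb were not lower in Cfp1-/- cells, although single members there were. The 35 members below 10 Mb had a median 0.31 above the comparison median untreated and 0.16 above it after doxorubicin, and the 49 members from 10 to 20 Mb had 0.09 and 0.10. Within the replicates the first of these windows gave smaller values, 0.243 and 0.210 untreated and 0.057 and 0.105 treated. The second gave 0.191 and 0.064 untreated and 0.050 and 0.046 treated. By the medians over both replicates, only 4 of 170 comparison windows with at least 20 genes had a higher untreated median than the first window of chromosome 8. The window with the most genes was low in both conditions. From 70 to 80 Mb the 128 members gave -0.30 untreated and -0.34 treated, with -0.305 and -0.286 within the untreated and -0.317 and -0.300 within the treated replicates. From 80 to 90 Mb the 104 members gave -0.26 and -0.26, whereas the 110 members from 120 to 130 Mb gave -0.05 and -0.19. Within the replicates that last window gave -0.087 and -0.100 untreated and -0.138 and -0.165 treated.

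Other windows had unlike medians in the conditions, with a wide spread between replicates in some. The 24 members from 60 to 70 Mb stood at -0.32 untreated and at -0.05 treated, where the replicates differed in sign (0.147 and -0.141). The 29 members from 30 to 40 Mb stood at -0.14 and -0.31, where the untreated replicates gave 0.042 and -0.222. The 62 members from 110 to 120 Mb stood at -0.14 and -0.32, with untreated replicates at -0.022 and -0.192 and treated ones at -0.210 and -0.202. The 74 members from 90 to 100 Mb stood at -0.01 untreated and at -0.10 treated. Their replicates lay close together, at -0.050 and -0.062 untreated and at -0.091 and -0.136 treated. The windows at 50 to 60 Mb, with 10 members, and beyond 130 Mb, with 2, were too small to place. Chromosome 8 did not hold the lowest windows of the genome. Windows 11 and 12 of chromosome 12, from 100 to 120 Mb, stood at -0.61 and -0.66 untreated and at -0.47 and -0.56 treated.

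**Figure D3:**
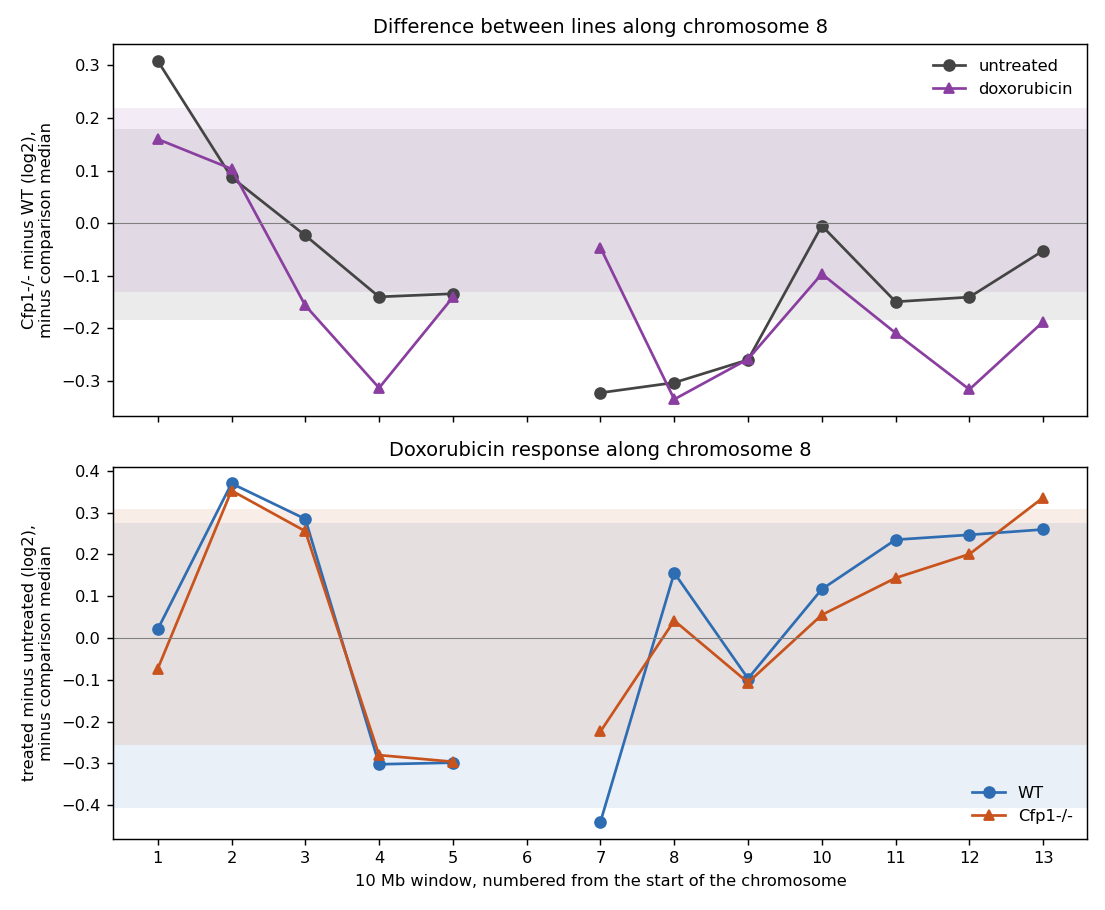
Medians in 10 Mb windows of chromosome 8 with at least 20 members, minus the median of the comparison autosomes (log2). Top, Cfp1-/- minus WT, untreated and treated; bottom, treated minus untreated in each line; shaded bands span the 10th to 90th percentile of 170 comparison windows. The first 2 windows are above 0 in the top panel and windows 8 and 9 are below the bands there in both conditions.

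The first and last members show the 2 ends. Insr, the insulin receptor (start 3150922), had 659 and 914 normalized counts in untreated WT, 653 and 724 in untreated Cfp1-/-, 651 and 526 in treated WT and 628 and 632 in treated Cfp1-/- cells. The lines overlapped in both conditions. Itgb1, the beta-1 integrin chain (start 131209554), had 12325 and 16123 in untreated WT and 7872 and 7838 in untreated Cfp1-/- cells, which do not overlap, and 6330 and 9124 in treated WT and 6247 and 5149 in treated Cfp1-/- cells, which do not overlap either.

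The lowest members in untreated Cfp1-/- cells, among those averaging 200 normalized counts or more over the 4 untreated libraries, were Kbtbd11, Trim67, Exoc3l, Tbc1d9, Mfap3l, Nr2f6, Dusp4 and Unc13a. Kbtbd11, a BTB-Kelch protein, had 796 and 594 normalized counts in untreated WT and 4.64 and 5.07 in untreated Cfp1-/- cells, a log2 fold change of -7.10. Trim67, a tripartite motif protein, had 236 and 583 against 3.71 and 6.76, a log2 fold change of -6.21. Both were near absent in untreated Cfp1-/- but not in untreated WT cells, and their differences were far larger than the shift of the median. The other 6 had log2 fold changes from -2.73 for Exoc3l to -1.67 for Unc13a, a synaptic vesicle priming factor. After doxorubicin Kbtbd11 had 2685 and 1027 normalized counts in WT and 49.0 and 31.8 in Cfp1-/- cells, and Trim67 had 245 and 202 against 15.3 and 20.2.

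The highest members lay partly in the first windows. Slc7a2, a transporter of cationic amino acids, was the highest at a log2 fold change of 2.48, with 75.6 and 61.5 normalized counts in untreated WT and 412 and 344 in untreated Cfp1-/- cells. Col4a1, the alpha-1 chain of type IV collagen, had 494 and 708 against 2908 and 3036, and Col4a2, its partner chain from the shared promoter region, 255 and 352 against 1260 and 1169. Their log2 fold changes were 2.34 and 2.03 untreated and 2.17 and 1.63 treated. Atp11a, a phospholipid flippase from the same window, had 1034 and 779 against 3241 and 2850. Hgsnat, a lysosomal acetyltransferase, Mt2, a metallothionein that binds zinc and copper, Tex15, a germ cell factor, and Camsap3, which caps microtubule minus ends, made up the 8, at 1.64, 1.60, 1.46 and 1.36.

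The 127 members in 9 functional lists, which were drawn up with earlier results known, were not all lower. Over all genes with at least 50 counts the median log2 CPM difference between the lines was 0.01 untreated and 0.02 after doxorubicin, and the background shares above apply to every list. On the comparison autosomes it was -0.09 and -0.04. Among their genes in the range of the members' highest quartile of expression it was -0.22 and -0.13. The lists were not matched for expression, so their medians hold some of this. In untreated cells members called lower outnumbered those called higher in 7 of the 9 lists, and the counts were equal for repair and telomere (2 and 2 of 15) and for cell cycle and centromere (2 and 2 of 9). Lower calls were also the more frequent ones on the comparison autosomes, at 19.2% against 13.2% higher.

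Of 9 replication genes, 3 were called lower and none higher in untreated Cfp1-/- cells, and 5 and none after doxorubicin, with list medians of -0.34 and -0.47. Gins3, a GINS subunit of the replicative helicase, had 721 and 604 normalized counts in untreated WT against 361 and 401 in untreated Cfp1-/- cells. Cdt1, which loads the helicase onto origins, had 1816 and 1685 against 1243 and 1138. Mcm5, a subunit of the helicase ring, had 11638 and 11750 against 8747 and 10108 and was not called.

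Of 18 genes of RNA processing and translation, 9 were called lower and none higher untreated, and 6 and none treated (medians -0.46 and -0.36). The most abundant of them, Cnot1, the scaffold of the CCR4-NOT deadenylase, had 27101 and 28463 normalized counts in untreated WT against 19816 and 16264 in untreated Cfp1-/- cells. Rpl13, a protein of the large ribosomal subunit, had 7564 and 8771 against 4692 and 5666, and Aars, the alanyl-tRNA synthetase, 11683 and 10895 against 6808 and 6851. The lines did not overlap in Cnot1, Rpl13 or Aars in untreated cells.

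Of 19 chromatin and transcription genes, 5 were called lower and none higher untreated, and 5 and 1 treated (medians -0.32 and -0.28). Chd9, a chromatin remodeller, had 9260 and 12032 normalized counts in untreated WT and 5078 and 4269 in untreated Cfp1-/- cells. Ash2l, which shares the Set1 complex with Cfp1, had 11692 and 11427 against 7125 and 9135 and was not called. Nor was Ctcf, the insulator protein, with 6387 and 6422 against 5537 and 4595. Tfdp1, the partner of E2F factors in the cell cycle list, was lower at 3952 and 4834 against 1884 and 1902, although it lies in the second window.

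Of 14 p53 and stress response genes, 5 were called lower and 2 higher untreated, and 4 and 1 treated (medians -0.46 and -0.38). Isyna1, which makes inositol phosphate, had 1127 and 1469 normalized counts in untreated WT against 362 and 491 in untreated Cfp1-/- cells. Mt2 and Mt1, neighbouring metallothionein genes, were the 2 called higher. Of 17 genes of mitochondria and metabolism, 4 were called lower and 2 higher untreated and 3 and 2 treated (medians -0.30 and -0.11), and Gcdh, an enzyme of lysine breakdown, went against the list, with 830 and 575 normalized counts in untreated WT and 1509 and 1682 in untreated Cfp1-/- cells. Of 21 surface and signalling genes, 7 were called lower and 5 higher untreated and 5 and 2 treated (medians -0.20 and -0.14). The repair and telomere list had medians of -0.03 and -0.16, and the cell cycle and centromere list 0.21 and -0.29, with 3 and 1, and 2 and 1, called lower and higher after doxorubicin.

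Among the 5 immediate-early and feedback genes, 4 were called lower in Cfp1-/- cells in both conditions and 1 higher in untreated cells (medians -1.17 and -1.89). Jund, an AP-1 subunit, had 708 and 799 normalized counts in untreated WT and 275 and 288 in untreated Cfp1-/- cells, and 483 and 654 against 236 and 183 after doxorubicin. Ier2 had 688 and 652 against 279 and 301, then 490 and 384 against 148 and 84.8. Junb, a further AP-1 subunit, had 379 and 513 against 222 and 193, then 643 and 880 against 237 and 165. In each of these genes the lines did not overlap in either condition. Dusp4, a phosphatase that limits MAP kinase signalling, had log2 fold changes of -1.87 untreated and -2.61 treated. Klf2, a Krüppel-like factor of naive pluripotency, went the other way in untreated cells, with 551 and 569 in WT and 1090 and 887 in Cfp1-/- cells, and the lines overlapped after treatment.

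The doxorubicin response was tested gene by gene in each line, over all genes, since it was not used to choose the chromosome. Whether the chromosome as a whole answered alike in both lines was not tested. In WT cells 243 of 814 members (29.9%) passed an adjusted p of 0.05 (edgeR's quasi-likelihood test, Benjamini-Hochberg) as higher after doxorubicin and 145 (17.8%) as lower, beside 26.5% and 21.8% of all genes and 25.8% and 23.3% on the comparison autosomes. In Cfp1-/- cells 240 (29.5%) were higher and 133 (16.3%) lower, beside 27.8% and 21% of all genes and 27.7% and 21% on the comparison autosomes. Without replicate 2 of treated Cfp1-/- cells the number called there fell from 373 to 245, and the number lower from 133 to 67. Under the study's added limits, a 2.5-fold change and an average of 200 normalized counts, 45 members were higher and 13 lower in WT (5.53% and 1.60%, backgrounds 5.1% and 2.8%) and 41 and 10 in Cfp1-/- cells (5.04% and 1.23%, backgrounds 5.38% and 2.23%).

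The responses of the lines, which share no library, overlapped. Higher in both were 191 members, which is 78.6% of those higher in WT and 79.6% of those higher in Cfp1-/- cells and 23.5% of the members tested (background 21.4%). Lower in both were 104, or 71.7% and 78.2% of the lower calls and 12.8% of the members (background 16.3%). Relative to the comparison autosomes the median response of the members was 0.0969 in WT (0.0821 and 0.0971 within the replicates) and 0.0450 in Cfp1-/- cells (0.0428 and 0.0660).

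Along the chromosome the responses of the lines had the same sign in 11 of the 12 windows with at least 20 members. Many comparison windows also agreed in sign, so this is not particular to chromosome 8. From 10 to 20 Mb the medians were 0.37 in WT and 0.35 in Cfp1-/- cells above the comparison, and from 120 to 130 Mb 0.26 and 0.34. From 30 to 40 Mb they were -0.30 and -0.28, from 40 to 50 Mb -0.30 and -0.30, and from 60 to 70 Mb -0.44 and -0.22. In that last window 7 of 23 tested members were called lower and none higher in WT, against 4 and 5 in Cfp1-/- cells. The backgrounds were 21.8% lower and 26.5% higher in WT, and 21% and 27.8% in Cfp1-/- cells. The 170 comparison windows had a 10th to 90th percentile of -0.41 to 0.28 in WT and -0.26 to 0.31 in Cfp1-/- cells.

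Among members averaging 200 normalized counts or more over the 4 libraries compared, Klhl26 and Mmp15 were among the 6 largest rises in both lines. Klhl26, a Kelch-like adaptor protein, had 230 and 267 normalized counts in untreated WT and 4147 and 2504 in treated WT, and went from 157 and 106 to 1799 and 1792 in Cfp1-/- cells. The log2 fold changes were 3.79 ± 0.27 (SE) and 3.81 ± 0.28 (edgeR's adjusted p 8.83e-06 and 1.08e-05). Mmp15, a membrane-bound matrix metalloproteinase, rose by 3.78 in WT and 3.49 in Cfp1-/- cells, from 70.5 and 79.2 to 1002 and 993 in WT.

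Rbl2, the pocket protein p130 that represses E2F targets, had 527 and 378 normalized counts in untreated and 6180 and 5032 in treated WT, and 558 and 480 and then 4377 and 4330 in Cfp1-/- cells. It rose by 3.67 ± 0.20 and 3.11 ± 0.19 on the log2 scale (edgeR's adjusted p 2.76e-06 and 5.46e-06). Among the 6 largest rises in WT were also Cpne2 at 3.53, Zfpm1, a cofactor of GATA factors, at 3.46, and Man2b1, a lysosomal mannosidase, at 3.10, which rose by 2.69, 2.01 and 2.05 in Cfp1-/- cells.

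In Cfp1-/- cells Mylk3, a myosin light chain kinase of heart muscle, led the rises under the same limit. It had 47.3 and 30.4 normalized counts untreated and 688 and 962 treated, against 3.40 and 6.25 and then 22.3 and 12.7 in WT. Its log2 fold changes were 4.45 ± 0.34 and, in WT, 1.88 ± 0.54 (edgeR's adjusted p 1.33e-05 and 0.0165), and the difference between them, 2.57 ± 0.71, did not pass (adjusted p 0.235). The call of Mylk3 in WT was lost without replicate 1 of untreated WT (1.48) or of treated WT (1.45), and with the first runs alone (1.18). Cpne7, Adcy7, an adenylate cyclase, and Nrp1, a receptor for semaphorins and VEGF, rose by 3.82, 3.46 and 3.44 in Cfp1-/- and by 2.82, 2.79 and 2.84 in WT cells.

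Zfp42, Sall1, Klf2 and Dlc1 were among the 6 largest falls in both lines under that limit. Zfp42, the ES cell marker Rex1, went from 15662 and 9967 to 1531 and 894 normalized counts in WT and from 5035 and 5077 to 1297 and 701 in Cfp1-/- cells. Its log2 fold changes were -3.36 ± 0.35 and -2.30 ± 0.34 (edgeR's adjusted p 6.37e-05 and 0.000495). Sall1, a zinc finger factor of ES cells and kidney, fell from 4716 and 3707 to 984 and 461 in WT and from 2294 and 1680 to 245 and 168 in Cfp1-/- cells. Klf2 went from 551 and 569 to 164 and 153 in WT and from 1090 and 887 to 169 and 112 in Cfp1-/- cells, so that lines that did not overlap without the drug overlapped with it. Dlc1, Urb2, Sap30, of the Sin3 deacetylase complex, and Taf5l and Samd1 completed the falls of either line, at -2.35, -1.80, -1.53, -1.22 and -1.40 in WT and at -2.15, -1.58, -1.21, -1.63 and -1.59 in Cfp1-/- cells.

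Among all genes tested 26.5% rose and 21.8% fell in WT, and 27.8% rose and 21% fell in Cfp1-/- cells. These shares are the background for the responses of every list. Within the lists, the replication genes called all fell. In WT 4 of 9 fell and none rose, and in Cfp1-/- cells 6 fell and none rose (median log2 CPM responses -0.21 and -0.53, against 0.03 and -0.00 over all genes). Mcm5 fell in both lines, with log2 fold changes of -0.64 ± 0.12 in WT and -0.61 ± 0.12 in Cfp1-/- cells, as did Dctd, which supplies dUMP for thymidine synthesis, at -0.86 ± 0.14 and -0.79 ± 0.14. Of 19 chromatin and transcription genes 8 fell and 1 rose in each line (medians -0.22 and -0.34), among them Ctcf, at log2 fold changes of -0.95 and -0.81, and Prmt7, an arginine methyltransferase, at -1.06 and -0.83. Of 18 genes of RNA processing and translation 7 fell in each line and 3 rose in WT and 2 in Cfp1-/- cells (medians -0.29 and -0.22). Esrp2, an epithelial splicing regulator, was among those that rose, by 1.38 and 1.06.

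Of 14 p53 and stress response genes 4 rose and 2 fell in WT and 3 rose and 2 fell in Cfp1-/- cells (medians 0.18 and -0.10). Gdf15, a p53-induced cytokine, had 11.9 and 8.34 normalized counts untreated and 79.9 and 67.6 treated in WT, and 10.2 and 10.1 and then 60.3 and 47.2 in Cfp1-/- cells. Its log2 fold changes were 2.88 ± 0.39 and 2.43 ± 0.39 (edgeR's adjusted p 0.000275 and 0.000741).

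Of 21 surface and signalling genes 9 rose and 4 fell in WT and 7 rose and 2 fell in Cfp1-/- cells (medians 0.39 and 0.22). Nrp1 is one of those that rose in both lines. The cell cycle and centromere list had 3 higher and 3 lower in WT and 2 and 3 in Cfp1-/- cells (medians 0.01 and 0.06), the repair and telomere list 5 and 2 and then 2 and 2 (medians 0.06 and 0.00), the mitochondria and metabolism list 1 and 6 and then 2 and 4 (medians -0.20 and -0.02), and the immediate-early list 1 and 2 and then 0 and 3 (medians -0.58 and -1.31).

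**Figure D4:**
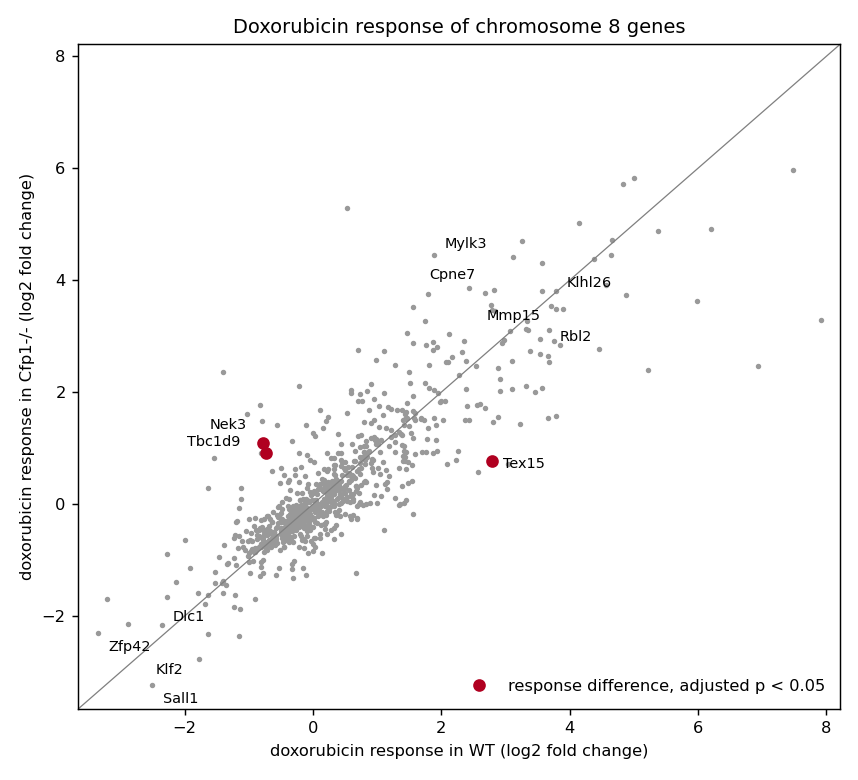
Log2 fold change after doxorubicin of each tested chromosome 8 gene in WT (horizontal) and Cfp1-/- cells (vertical), with the line of equal response and a label at some of the genes named. Red points mark Tex15, Tbc1d9 and Nek3, whose responses differed at an adjusted p under 0.05 (edgeR).

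The test of the difference between the responses, which is also the change of the difference between the lines, passed for 3 members, 2 with the higher and 1 with the lower response in Cfp1-/- cells (0.246% and 0.123%, backgrounds 0.114% and 0.121%). At an unadjusted p under 0.05 there were 111 members, 13.6% of those tested, against 10.6% of all genes. DESeq2 called 23 members and the fit with a replicate block 26, while leaving out a single library left 0 or 1.

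Tex15 had 1006 and 1187 normalized counts in untreated WT and 6561 and 8118 in treated WT, and 2990 and 2920 and then 5032 and 4789 in Cfp1-/- cells. It was higher in Cfp1-/- cells without the drug and lower with it, and the lines overlapped in neither condition. The log2 response was 2.79 ± 0.15 in WT and 0.78 ± 0.14 in Cfp1-/- cells, a difference of -2.01 ± 0.20 (edgeR's adjusted p 0.019). Its adjusted p was 0.0563 to 0.146 when any one Cfp1-/- library was left out.

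Tbc1d9, a GTPase activator of the Rab family, had 1047 and 1058 normalized counts in untreated WT and 589 and 637 in treated WT, but 224 and 258 and then 436 and 445 in Cfp1-/- cells. It fell by 0.73 ± 0.15 on the log2 scale in WT and rose by 0.91 ± 0.16 in Cfp1-/- cells, a difference of 1.65 ± 0.22 (edgeR's adjusted p 0.0317). Nek3, a NIMA-related kinase, had 298 and 318 and then 162 and 186 in WT and 303 and 258 and then 629 and 528 in Cfp1-/- cells. The lines overlapped in Nek3 without the drug and did not overlap with it. Its responses were -0.77 ± 0.20 and 1.09 ± 0.19, a difference of 1.86 ± 0.28 (edgeR's adjusted p 0.0401). Leaving out any of the 8 libraries took both genes over the threshold, to an adjusted p of 0.0689 to 0.156 for Tbc1d9 and of 0.0723 to 0.193 for Nek3, and the call of Nek3 in WT was lost without replicate 1 of treated WT (-0.69).

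**Figure D5:**
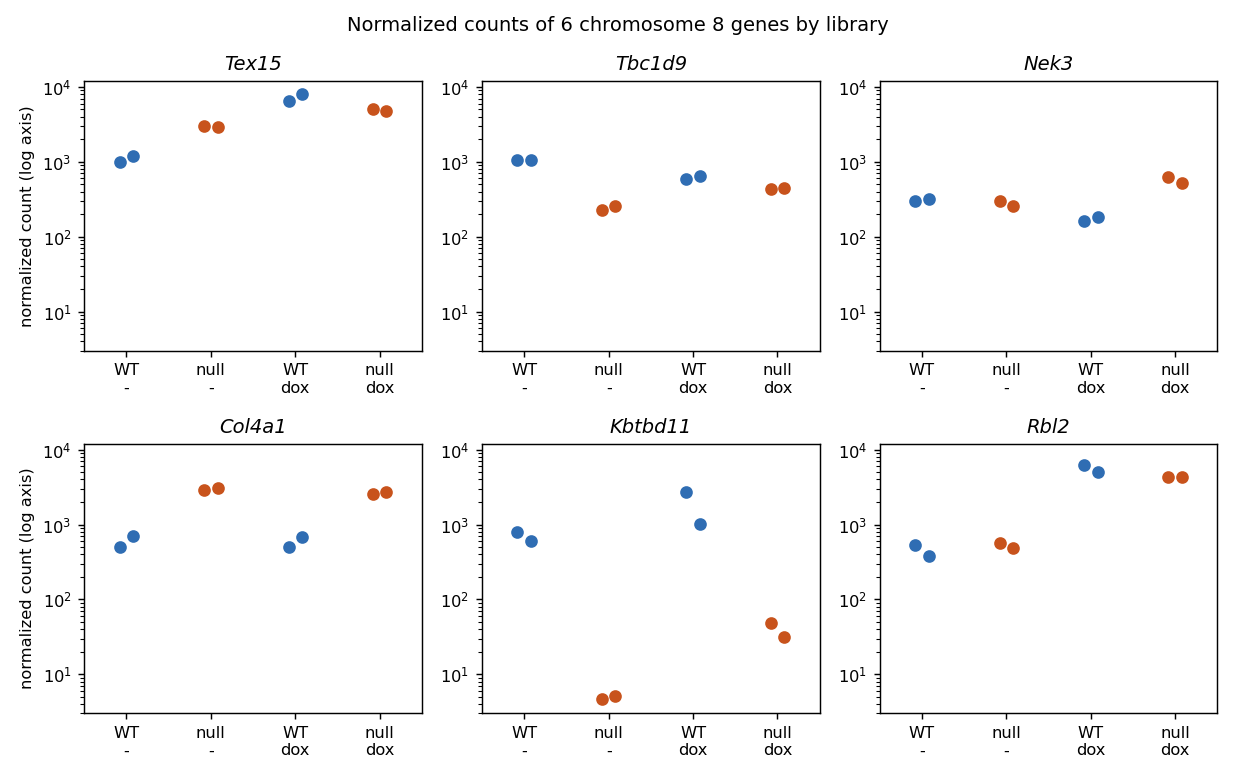
Normalized counts (log axis) of 6 chromosome 8 genes, with 1 point per library (blue WT, orange Cfp1-/-), untreated (-) and after doxorubicin (dox). Tbc1d9 and Nek3 move in opposite directions in the 2 lines, Col4a1 differs between the lines with no call for the drug, and Rbl2 rises in both.

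Opposite responses that passed in both lines were seen for 6 members, Tbc1d9, Nek3, Pard3, Palld, Psd3 and Mt2, which is 0.737% of the members tested against 0.133% of all genes (21 genes) and 0.0724% of the genes on the comparison autosomes. Pard3, Palld and Psd3 fall outside the rule for named genes and were chosen after their values were seen. Pard3, a polarity protein, had 2397 and 2593 normalized counts and then 1876 and 1806 in WT, and 1528 and 1470 and then 1858 and 1993 in Cfp1-/- cells. Palld, an actin-binding protein, had 913 and 886 and then 679 and 602 in WT and 1144 and 1033 and then 1458 and 1588 in Cfp1-/- cells. Psd3 had 593 and 525 and then 401 and 369 in WT and 346 and 343 and then 537 and 514 in Cfp1-/- cells. In the 5 genes other than Mt2 the response was the higher one in Cfp1-/- cells.

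Mt2 went the other way, from 1904 and 1895 to 2569 and 2392 normalized counts in WT, a log2 fold change of 0.43 ± 0.16, and from 6261 and 5056 to 4209 and 3382 in Cfp1-/- cells, one of -0.53 ± 0.15 (edgeR's adjusted p 0.0436 and 0.0171). The changes of Pard3, Palld, Psd3 and Mt2 were each under 1 on the log2 scale in both lines, and for Pard3, Palld, Psd3 and Mt2 the difference between the responses had an adjusted p of 0.111 to 0.152. In WT, Mt2 lost its call without any one WT library (adjusted p 0.0779 to 0.158), with DESeq2 (0.0697) and with its size factors (0.0571), and Pard3 without any one WT library (0.0578 to 0.124). Palld lost its call in WT without replicate 2 of treated WT or either replicate of untreated WT (0.0691 to 0.123), and Psd3 without either replicate of treated WT or replicate 1 of untreated WT (0.0627 to 0.164).

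In Cfp1-/- cells, Pard3 lost its call without any one Cfp1-/- library (0.0512 to 0.109) or either untreated WT library (0.0557 and 0.0559). Mt2 lost its call in Cfp1-/- cells without treated replicate 2 (0.131) or untreated replicate 1 (0.107), Palld without treated replicate 2 (0.0735) or untreated replicate 2 (0.0850), and Psd3 without treated replicate 1 (0.0515) or untreated replicate 2 (0.0511). With 1 library left out 2 to 4 of the 6 opposite members were still called so. With DESeq2 or its size factors 5 were, without the affected run of treated Cfp1-/- replicate 1 all 6, and with the replicate block 8 members in all (40 of all genes), these 6 among them.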

How the data were processed

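RNA-seq of ribosomal RNA-depleted, strand-specific libraries was analysed. Per the labels and methods, the authors aligned reads with STAR (2.2.1 in the submitters' notes) to mm9 and made the raw counts per gene with HTSeq over Ensembl exons on the stated strand. The deposited normalized values are a signal, the counts of the 2 runs of a replicate summed by the authors and divided by a DESeq size factor, and they are the normalized counts printed here. The members and lists were chosen with earlier results of these data known.

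Runs were summed into 8 libraries of 14880589 to 29422711 counts. Genes kept by filterByExpr (15758) were tested in 1 fit of the 4 groups by edgeR's quasi-likelihood test (edgeR 4.0.16, R 4.3.3; TMM, common dispersion 0.0304, prior df 5.62) with Benjamini-Hochberg adjustment at 0.05. Log2 CPM used a prior count of 2, and a log2 fold change is given ± SE. With n = 2, p-values measure the spread between these replicates only. Alternatives were DESeq2 1.42.0, its size factors, no count filter, a replicate block, leaving out each library, a limit of 1600 summed counts, a prior count of 0.5, all other autosomes and summed counts. Using the first runs alone, and leaving out 1 run of treated Cfp1-/- replicate 1, were added after the data were seen. No setting left out a run of treated WT replicate 1 by itself. Deviations of same-numbered replicates from their group means correlated across genes at 0.140 to 0.451 for the 6 pairings of groups, each over 0.1. Replicate numbers were therefore taken to link samples, but the main fit held no block, so its p-values leave the link out. The block was run as an alternative only, and it took the members with a called response difference from 3 to 26. What a number shares is not given in the sources used here.

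Members were named from the lists, as the 6 largest rises and falls per line, as those with a called response difference, as the 8 highest and 8 lowest untreated differences (averaging 200 normalized counts or more), as the 3 on either side of the count limit, and as the first and last on the chromosome. Some list members are counted but not reported by name here.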

Additional observations from a re-analysis of the deposited data

Results flagged for a closer look

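The response to doxorubicin differed between the lines for 3 chromosome 8 genes in edgeR's test of the difference itself. The log2 response in Cfp1-/- minus that in WT was -2.014 for Tex15, 1.646 for Tbc1d9 and 1.861 for Nek3 (adjusted p 0.019, 0.0317 and 0.0401, n = 2 per group). The direction of each was the same in every alternative run, and the calls were lost without any one Cfp1-/- library for Tex15 and without any one of the 8 libraries for Tbc1d9 and Nek3.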

How the results depend on the processing

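With 2 replicates a group, counts of calls move with single libraries. Leaving out each in turn gave 175 to 306 members called between the untreated lines (295 with all), 89 to 232 between the treated lines (223), 245 to 380 for the response in Cfp1-/- cells (373) and 0 to 1 for the response difference (3). The response difference called 23 members with DESeq2, 5 with the first runs alone, 13 with no filter and 26 with the replicate block, in which numbers pair the samples. The block also took the number lower in treated Cfp1-/- cells from 152 to 237, and the members called opposite in the lines from 6 to 8, and moved none of the other 4 totals of calls by over 1.5 times. The study's limits left 58 members for the WT response and 51 for that of Cfp1-/-.

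The gap between the lines kept its sign in every setting. Values from summed counts are of shares and not of medians. Untreated, that share went the other way in replicate 1, at 5.38% in Cfp1-/- and 5.36% in WT, but not in replicate 2, at 5.37% and 5.49%. Untreated the median gap was -0.141, and -0.247 against all other autosomes, -0.124 with at least 1600 counts, -0.0139 from summed counts, -0.120 from the first runs and -0.146 to -0.106 with a library left out. Treated it was -0.197, and -0.278, -0.174 and -0.102 in the first 3 of these, -0.160 with the replicate block and -0.188 to -0.148 with a library left out. The median response in WT was 0.0969, and 0.0671 against all other autosomes, 0.215 from summed counts and 0.0902 to 0.117 with a library left out. In Cfp1-/- cells it was 0.0450, and 0.0820 with at least 1600 counts and 0.126 from summed counts. The cause of these moves was not tested. Of 4208 recomputed values of 301 named calls, 3785 kept direction and call, 423 kept direction only and 0 reversed.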
